A study of Mus musculus with 8 samples.

Results

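The cytosolic ribosomal protein genes of the mouse were examined in embryos at the 2-cell stage. All rows of the deposited count table whose symbol is Rpl or Rps with a number and at most a short suffix, together with Rplp0, Rplp1, Rplp2 and Rpsa, were taken, which gave 89 rows of 55487. Of these, 46 are the standard genes of the large (60S) ribosomal subunit, 31 are the standard genes of the small (40S) subunit, and 12 are paralogues or copies of a standard gene. Symbols such as Fau, Rack1 and Rpl36al, which also stand for ribosomal proteins, lie outside this rule and were kept apart. The embryos carried the genotype label WT (control) or polq knockdown. All were microinjected as 1-cell embryos 20 h after hCG (human chorionic gonadotropin), and pools of 5 embryos gave the total RNA after a further 10 h. CasRX alone went into the 4 control samples. It is a nuclease guided to RNA targets. The 4 knockdown samples received it with a guide against Polq, which encodes DNA polymerase theta. Both groups thus carry CasRX, and the labels name neither a control guide nor a mouse strain.

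A ribosome is built from ribosomal RNAs and one copy of most ribosomal proteins, so that a growing cell makes these proteins in matched amounts. Their mRNAs typically begin with a C followed by a run of pyrimidines (the 5′ terminal oligopyrimidine or TOP motif), through which mTORC1 and the RNA-binding protein LARP1 control their translation. A fully grown oocyte stores ribosomes and ribosomal protein mRNAs, and the 2-cell embryo degrades maternal mRNA while it begins to transcribe its own genome.

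The libraries held 33311665 to 43748621 counts in the controls, and 4726159, 8627403, 8100969 and 33650050 counts in knockdown replicates 1 to 4. Levels below are CPM (counts scaled to a common library total) with TMM factors (trimmed mean of M values), and each fold change is knockdown over control. Polq, the targeted gene, stood at 34.6, 49.7, 40.1 and 32.7 CPM in control replicates 1 to 4 and at 16.9, 38.9, 29.2 and 41.1 CPM in knockdown replicates 1 to 4. The groups overlapped (exact 2-sided permutation test, p = 0.343, where 0.0286 is the smallest p that 4 against 4 can give). The second group is therefore called knockdown-labelled. All 13 markers of oocytes and 2-cell embryos had counts and summed to 59537 to 68869 CPM in the controls and 55558 to 67694 CPM in the knockdown-labelled libraries. Of 18 markers of cumulus and granulosa cells, 8 had counts, and Fshr, Foxl2, Inha, Inhba, Has2, Ptx3, Cyp11a1, Nr5a1, Ptgs2 and Col4a1 were at 0 in every library. Their sum was 6.36 to 27.4 CPM in the controls, highest in control replicate 2, and 2.58 to 16.6 CPM in the knockdown-labelled libraries.

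The starts of a few members are shown first, because the paralogues described below differ from their standard genes in this stretch. Each line gives 45 bases before the RefSeq transcription start and 15 bases from it (GRCm38.p6), and capitals mark the longest run of C and T between 10 bases before the start and 15 bases from it. These are annotated starts and were not measured in these embryos. Rps27 lies at chr3:90213634-90213693 (minus strand) and Rps27l at chr9:66946041-66946100 (plus strand). Rpl39 lies at chrX:37085208-37085267 (minus strand) and Rpl39l at chr16:10170183-10170242 (plus strand). Rpl22 lies at chr4:152325681-152325740 (plus strand) and Rpl22l1 at chr3:28805463-28805522 (plus strand). Rpl10 lies at chrX:74270771-74270830 (plus strand) and Rpl10l at chr12:66284387-66284446 (minus strand). Rplp2, the second most abundant large-subunit member per length, lies at chr7:141447606-141447665 (plus strand).
Rps27: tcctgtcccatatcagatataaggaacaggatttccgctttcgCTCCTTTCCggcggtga
Rps27l: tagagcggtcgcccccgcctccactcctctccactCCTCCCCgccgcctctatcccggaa
Rpl39: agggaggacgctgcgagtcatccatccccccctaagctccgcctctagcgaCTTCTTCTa
Rpl39l: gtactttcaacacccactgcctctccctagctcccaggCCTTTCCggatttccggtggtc
Rpl22: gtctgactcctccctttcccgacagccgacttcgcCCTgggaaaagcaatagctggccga
Rpl22l1: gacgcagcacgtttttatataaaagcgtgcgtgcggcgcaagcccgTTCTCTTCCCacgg
Rpl10: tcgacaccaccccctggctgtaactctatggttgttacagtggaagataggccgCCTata
Rpl10l: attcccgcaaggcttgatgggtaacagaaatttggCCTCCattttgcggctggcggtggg
Rplp2: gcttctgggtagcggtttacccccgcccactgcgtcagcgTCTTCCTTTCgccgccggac

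The run was 9 bases in Rps27 and 7 in Rps27l, 8 in Rpl39 and 7 in Rpl39l, 3 in Rpl22 and 10 in Rpl22l1, 3 in Rpl10 and 5 in Rpl10l, and 10 in Rplp2. The runs were counted within the window only, and those of Rps27l and Rpl22 go on upstream of it. RefSeq promoters (250 bases before to 50 bases after the start) were matched for 64 members, 57 of them standard genes. A run of at least 8 C or T in the window around the start was present in 33.3% of the 57 standard members (11 of 34 large-subunit and 8 of 23 small-subunit genes) and in 9.41% of 27025 promoters. The letters CGGAAG, the core bound by ETS factors, were found on either strand in 70.2% of the 57 and in 17.2% of all promoters. The letters AAGATGG, part of the YY1 site, were found in 14% of the 57 and 6.48% of all, and they share AAG with CGGAAG and can overlap it. TATAAA was found in 8.77% of the 57 and 14.2% of all. The 19 standard members with the pyrimidine run had a median level of 266 CPM per kb of exon and a median log2 fold change of 0.14, and the 38 without it had 312 CPM per kb and 0.13. The medians of both classes lay close together. The 40 members with CGGAAG had a median of 448 CPM per kb and the 17 without it 239 CPM per kb. Their median log2 fold changes were 0.12 with it and 0.21 without it. These are descriptions of letters in a window, not of bound sites.

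The 89 rows took 3.97%, 2.44%, 2.78% and 3.46% of all counts in control replicates 1 to 4, and 3.07%, 3.38%, 3.94% and 3.48% in knockdown-labelled replicates 1 to 4. The widest 95% interval of these shares (Wilson, counting error only) was that of knockdown-labelled replicate 1, 3.05% to 3.08%. The group means were 3.16% ± 0.686 (SD, n = 4) and 3.47% ± 0.360 (SD, n = 4), a difference of 0.304 percentage points that lies within the spread of the controls. Leaving out control replicate 1 gave a difference of 0.574 points, leaving out control replicate 2 gave 0.0639, leaving out control replicate 3 gave 0.175, and leaving out knockdown-labelled replicate 3 gave 0.147. Mitochondrially encoded RNA took 17.8% to 26.9% of the control counts and 20.2% to 27.7% of the knockdown-labelled counts. With it left out of the total, the difference was 0.438 points. A share does not tell fewer cells from less RNA per cell. The ratio of large-subunit to small-subunit counts was 1.18 ± 0.0911 (SD, n = 4) in the controls and 1.14 ± 0.0394 (SD, n = 4) in the knockdown-labelled libraries, so the subunits kept about the same proportion while their joint share moved.

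**Figure D1:**
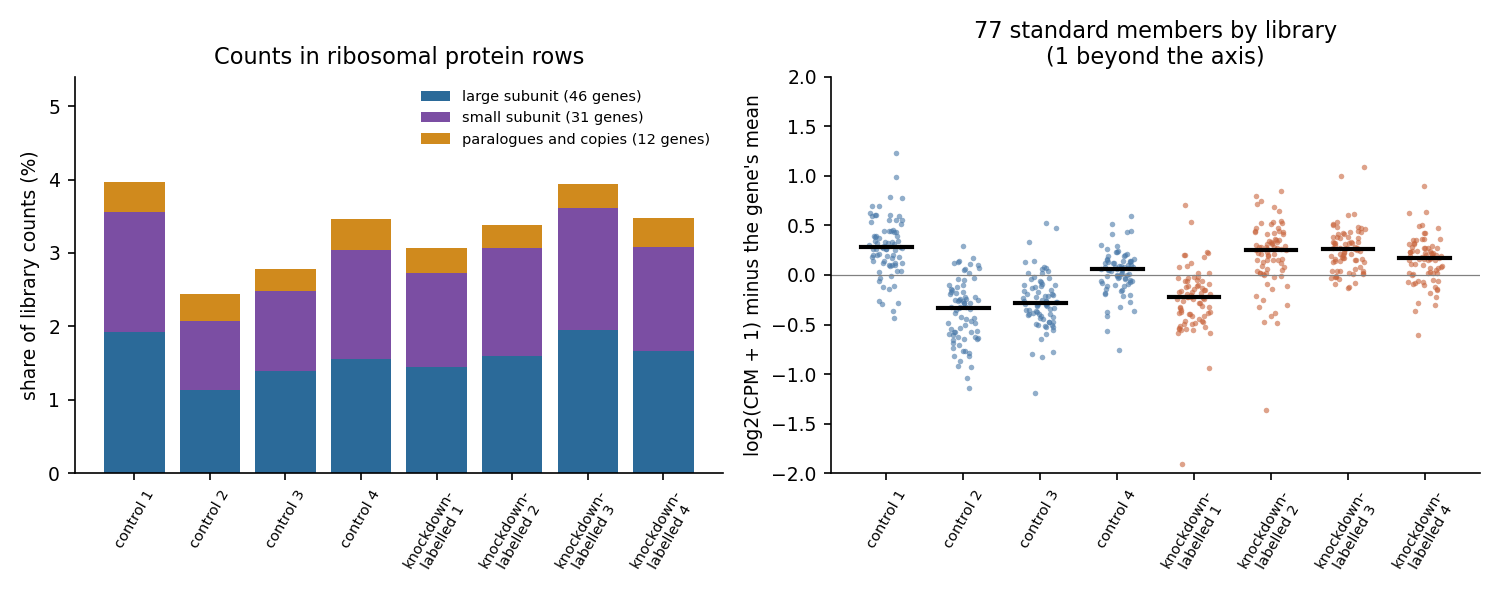
Left: share of each library's counts (%) in the ribosomal protein rows, stacked by class, for 4 control and 4 knockdown-labelled libraries; right: log2(CPM + 1) of each of the 77 standard members minus the gene's mean over 8 libraries (points) with the median (bar). Control replicates 2 and 3 and knockdown-labelled replicate 1 lie below the line for most members, and 1 point (Rpsa in control replicate 2) falls beyond the axis.

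The standard members moved together from library to library. Each member's log2(CPM + 1) was set against its own mean over the 8 libraries. The median deviation of the 77 standard members was 0.28, -0.33, -0.28 and 0.06 in control replicates 1 to 4 and -0.22, 0.25, 0.26 and 0.17 in knockdown-labelled replicates 1 to 4. Control replicates 2 and 3 and knockdown-labelled replicate 1 were thus low and the other libraries level or high, and this order crosses the groups. Large-subunit members alone gave 0.26, -0.32, -0.26 and 0.06 in the controls and -0.23, 0.21, 0.29 and 0.19 in the knockdown-labelled libraries. Small-subunit members alone gave 0.31, -0.43, -0.29 and 0.06, and -0.21, 0.29, 0.23 and 0.17. Both subunits showed the same libraries low. The group means of the 77 differed by 0.18, against a pooled SD of 0.26 between libraries of a group and a range of 0.61 within the controls alone.

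The same measure in other gene sets is given beside it, with no test of the difference. Over all 13146 genes tested, the median deviation stayed between -0.01 and 0.07. The TMM factors set the bulk of these genes level between libraries, so this value is held near 0 by the scaling. A set of 876 tested genes outside the rule had transcripts of up to 1000 nt, the length class of most ribosomal protein mRNAs. Their median deviation stayed between -0.10 and 0.11. The length classes used here did not take in all genes tested. The 74 tested mitochondrial ribosomal protein genes had 0.16, -0.23, -0.02 and 0.30 in the controls and -0.19, -0.06, 0.07 and 0.41 in the knockdown-labelled libraries. They were low in control replicate 2 and knockdown-labelled replicate 1, as the cytosolic genes were, but highest in knockdown-labelled replicate 4 and near their mean in control replicate 3. Of the 77 standard members, 32 had their lowest level in control replicate 2, 19 in control replicate 3 and 15 in knockdown-labelled replicate 1. The highest level fell in control replicate 1 for 29 members, in knockdown-labelled replicate 2 for 24 and in knockdown-labelled replicate 3 for 13. Control replicate 1 was the lowest library for 0 of the 77, and control replicate 2 the highest for 0. Over all genes tested, control replicate 2 was lowest in 18.1% and control replicate 1 highest in 14.4%. The marker sum of cumulus and granulosa cells, highest in control replicate 2, was small beside these levels, and whether it plays a part was not tested.

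**Figure D2:**
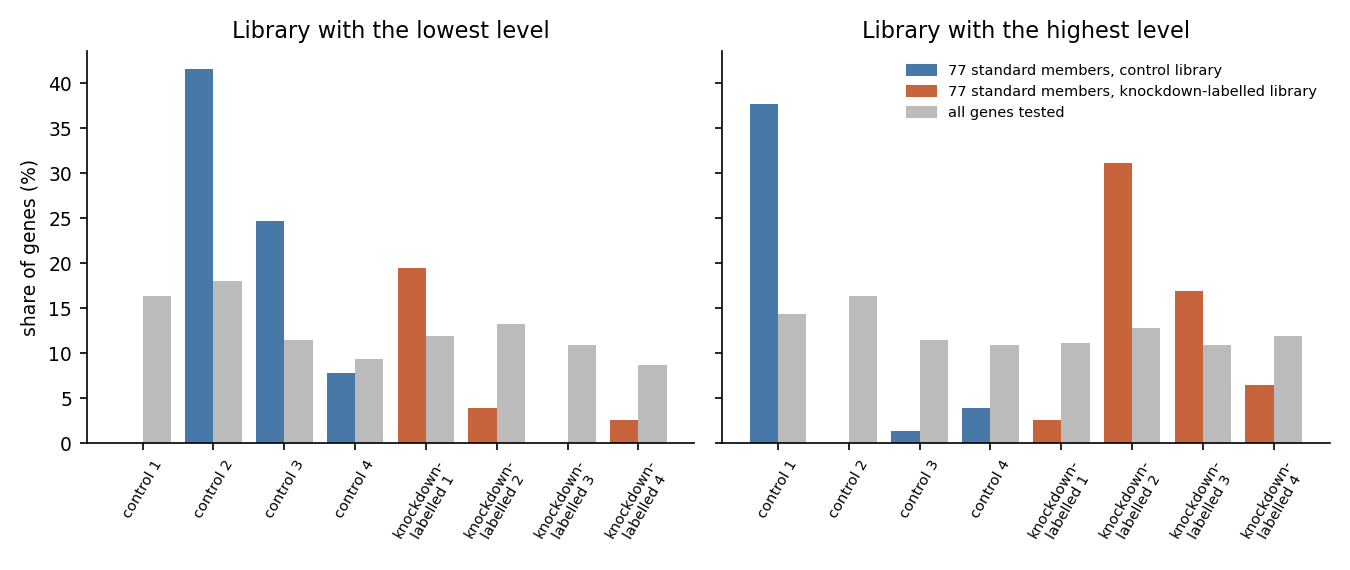
Share (%) of the 77 standard members (coloured bars) and of all 13146 genes tested (grey bars) whose lowest (left) or highest (right) CPM falls in each of the 8 libraries. Control replicate 2 holds the lowest level of 32 members and control replicate 1 the highest of 29, while the grey bars are more even.

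The levels of the standard members spanned a wide range. Per kb of exon, the median over the 77 was 368 CPM, with quartiles of 154 and 639 and extremes of 7.72 (Rpsa) and 10823 (Rpl41). The medians were 257 CPM per kb for the large subunit and 449 for the small subunit. The upper quartile was 4.16 times the lower, so the middle of the distribution was far narrower than its ends. The order of the members was kept between libraries: Spearman's rho of CPM over the 77 was 0.922 to 0.981 in the 28 pairs of libraries, which share gene lengths and counting. Length was taken from the principal annotated transcript (GENCODE vM21, GRCm38). Coding length in its place ranked the members alike (rho 0.953 over 77), but some places changed. In the large subunit, Rplp2 moved from place 2 to 4 and Rpl12 from 45 to 42. In the small subunit, Rps24 moved from place 15 to 6 and Rps20 from 28 to 18. The fragment length is unknown here, so levels of very short mRNAs may be understated.

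Rpl41, which encodes the smallest ribosomal protein, was the highest large-subunit member. It stood at 5703, 3727, 4733 and 3881 CPM in control replicates 1 to 4 and at 4212, 4741, 5621 and 5220 CPM in knockdown-labelled replicates 1 to 4, and the groups overlapped. The gene lies at chr10:128548114-128549305 on the minus strand. Rplp2, an acidic protein of the stalk that recruits translation factors, was next per kb, at 753, 752, 718 and 640 CPM in the controls and 841, 745, 698 and 782 CPM in the knockdown-labelled libraries. It hardly followed the common pattern: control replicate 2 was level with control replicate 1, and its coefficient of variation in the controls was 7.44%, against a median of 25.9% for the 77 standard members. The stalk partner Rplp1 stood at 243, 186, 158 and 224 CPM in the controls and 188, 265, 244 and 202 CPM in the knockdown-labelled libraries, with its lowest values in control replicates 3 and 2. Rplp0, the stalk's base, had its highest value in control replicate 3 (393 CPM) and its lowest in control replicate 2 (162 CPM), and its knockdown-labelled libraries, 220 to 382 CPM, fell between them. Per kb, the 3 stalk genes stood at 1760 ± 141 (Rplp2), 428 ± 72.5 (Rplp1) and 208 ± 59.1 CPM (Rplp0; SD, n = 8), intervals that do not touch. Rpl37, a zinc-binding protein of the large subunit, followed at 1221 ± 224 CPM per kb (SD, n = 8), with values of 839 to 1364 CPM in the controls and 864 to 1180 CPM in the knockdown-labelled libraries.

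At the lower end of the large subunit stood Rpl3, a protein next to the peptidyl transferase centre, and Rpl12, part of the stalk base. Rpl3 stood at 23.1, 9.29, 8.26 and 23.5 CPM in the controls and 29.7, 21, 31.3 and 31.7 CPM in the knockdown-labelled libraries. Control replicates 2 and 3 were the low ones, and the groups overlapped at knockdown-labelled replicate 2. Rpl12 stood at 45.5, 32.9, 41.5 and 30.9 CPM in the controls and 27.4, 10.9, 32.8 and 31.3 CPM in the knockdown-labelled libraries, with knockdown-labelled replicate 2 apart from the rest. Rpl5 and Rpl11, which join 5S rRNA and bind the p53 regulator Mdm2 when assembly fails, were close in their range: Rpl5 ran from 122 to 168 CPM in the controls and from 115 to 161 CPM in the other group, and Rpl11 from 99 to 148 and from 98.0 to 177 CPM. Per kb, Rpl11 (156 ± 33.3 CPM; SD, n = 8) stood above Rpl5 (68.9 ± 10.2).

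Of the small subunit, Rps29 and Rps28 were among the highest, at 2556 ± 613 and 2038 ± 430 CPM per kb (SD, n = 8), values that do not separate beyond their spread. Rps29 was highest in control replicate 1, at 1499 CPM, and otherwise lay between 781 and 1145 CPM. Rpsa, the laminin receptor precursor and a protein of the 40S subunit, was the lowest standard member of both subunits. It stood at 23.3, 0.221, 12 and 11.7 CPM in the controls and 10.9, 13.9, 20.9 and 5.77 CPM in the knockdown-labelled libraries, so that control replicate 2, with 7 counts against 762 in control replicate 1, lay far below all others. Rps18, next to Rpsa in the order, stood at 42.4 ± 13.7 CPM per kb (SD, n = 8). Rps6, the protein phosphorylated by the S6 kinases, stood at 305, 156, 199 and 228 CPM in the controls and 242, 300, 323 and 274 CPM in the knockdown-labelled libraries. Rps27a, made as a fusion with ubiquitin, ran from 180 to 288 CPM and from 213 to 325 CPM. The gene Rps4x, on the X chromosome, ran from 159 to 307 CPM in the controls and from 153 to 235 CPM in the knockdown-labelled libraries. In each of these 3 genes the groups overlapped.

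**Figure D3:**
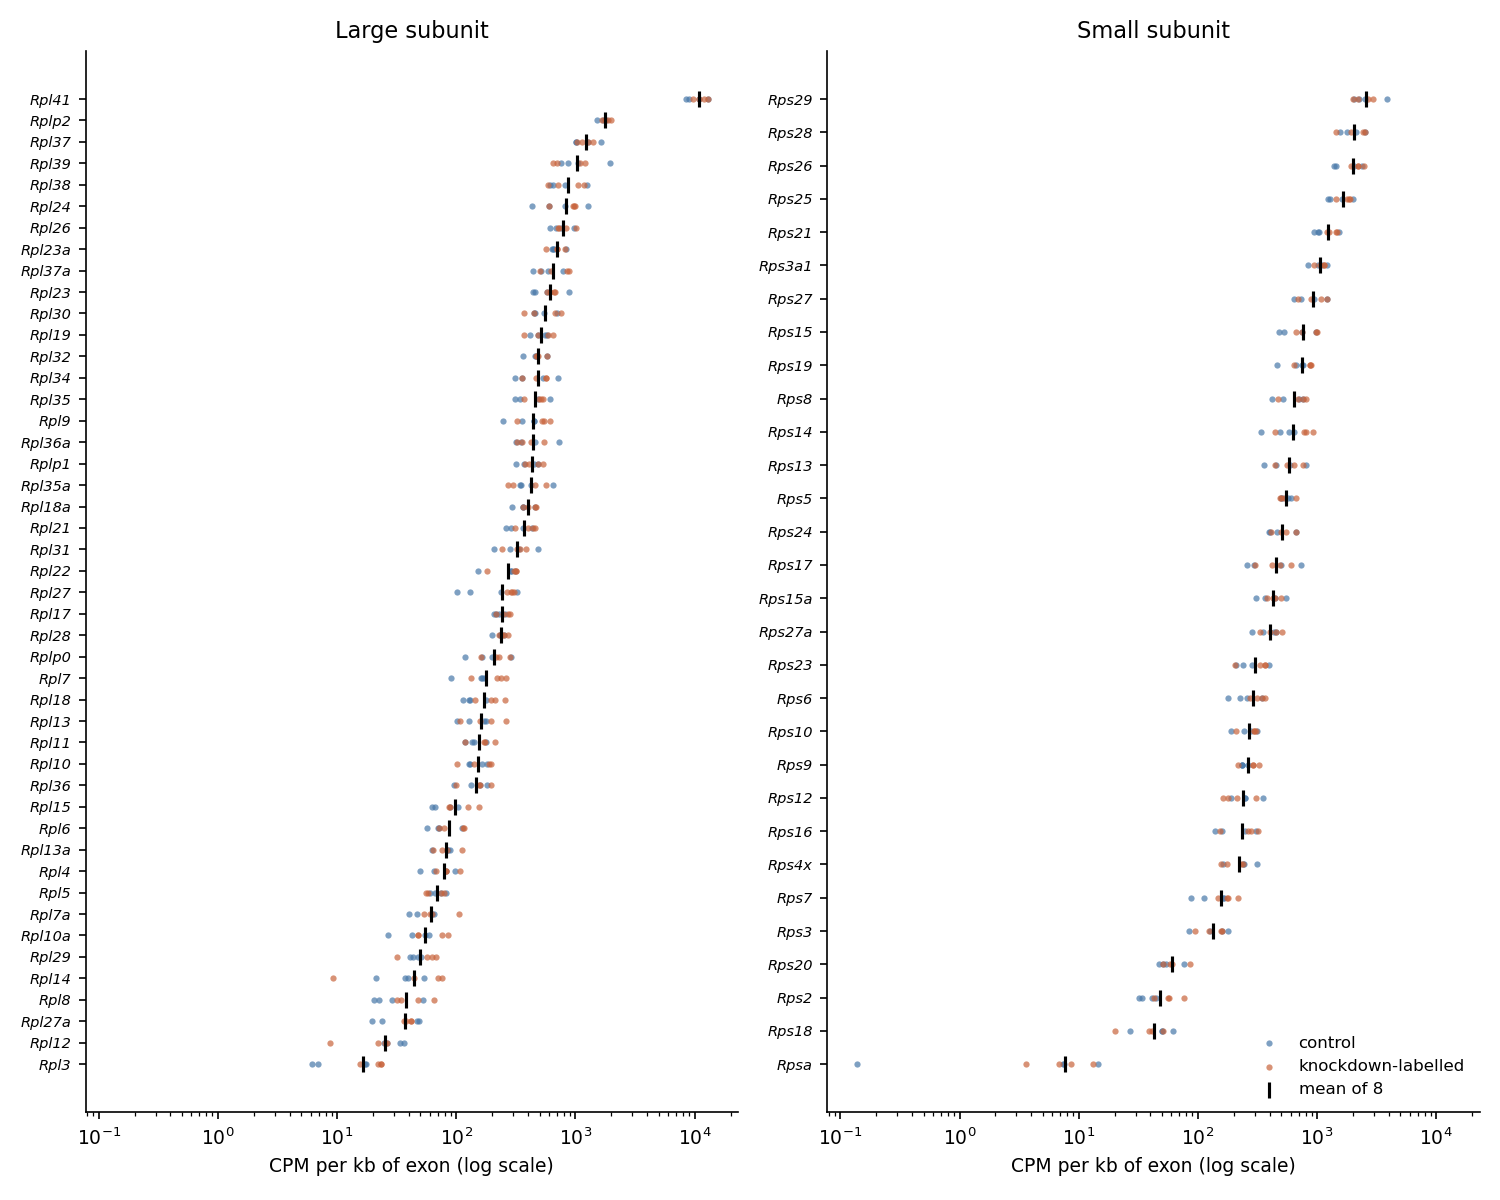
Level of standard members in CPM per kb of exon (log scale), for the 46 large-subunit and 30 of the 31 small-subunit genes, with 1 point per library (blue, control; orange, knockdown-labelled) and the mean of 8 libraries (bar). Rpl41 stands apart at 10823 and Rpsa is lowest at 7.72, with control replicate 2 at the far left of the Rpsa row.

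Among the 12 paralogues and copies, Rps27l was by far the highest and exceeded its standard gene. Rps27l (chr9:66946086-66949516, plus strand) encodes a protein nearly identical to Rps27, a zinc finger protein of the 40S subunit, and is also known as a p53 target. It stood at 3289, 3642, 2281 and 3329 CPM in the controls and 2846, 2401, 2304 and 3283 CPM in the knockdown-labelled libraries. Rps27 (chr3:90212522-90213651, minus strand) stood at 419, 255, 219 and 324 CPM and at 238, 309, 375 and 418 CPM. Per kb of exon, every library held more Rps27l than Rps27. The ratio of their counts was 9.57 ± 2.68 (SD, n = 8), from 6.14 in knockdown-labelled replicate 3 to 14.3 in control replicate 2, and per kb of exon it was 6.61 ± 1.85. Rps27l did not follow the other members in control replicate 2, where it was highest and Rps27 was among the low values.

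Rpl39l, whose product replaces Rpl39 at the exit tunnel and is known from male germ cells, came close per length to its X-linked standard gene. It stood at 580, 271, 353 and 407 CPM in the controls and 205, 523, 533 and 530 CPM in the knockdown-labelled libraries, with knockdown-labelled replicate 1 lowest. Rpl39 stood at 1185, 648, 534 and 462 CPM and at 397, 427, 736 and 663 CPM. The ratio per kb was 0.795 ± 0.290 (SD, n = 8). Rpl10l, a single-exon retrogene of the X-linked Rpl10 that serves in spermatocytes, stood at 69.9, 42.8, 48.4 and 116 CPM in the controls and 78.1, 113, 52.1 and 98.0 CPM in the knockdown-labelled libraries. Rpl10, the protein of the subunit-joining site, ran from 103 to 144 CPM and from 81.5 to 156 CPM. The Rpl10l to Rpl10 ratio was 0.521 ± 0.246 per kb (SD, n = 8). Both germ-line paralogues of X-linked genes were thus present at an appreciable part of the standard gene's level in all 8 libraries.

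Rpl3l, the striated-muscle form of Rpl3, stood at 3.97 to 20.4 CPM in the controls and 4.97 to 22.8 CPM in the knockdown-labelled libraries. Its ratio to the low Rpl3 was 0.705 ± 0.482 per kb (SD, n = 8). Rpl22l1, which is known to be held down by Rpl22, ran from 13.7 to 77.7 CPM and from 27.6 to 61.9 CPM. Its ratio to Rpl22, at 72.8 to 148 CPM in the controls, was 0.281 ± 0.125 per kb. Rpl7l1, a nucleolar relative of Rpl7, had a ratio of 0.269 ± 0.0973 per kb. The single-exon Rps4l, annotated as a transcribed processed pseudogene, ran from 16.9 to 79.3 CPM and from 15.7 to 86.6 CPM, and had a ratio to Rps4x of 0.290 ± 0.192 per kb. The processed pseudogenes Rps3a2 (20.5 ± 7.69 CPM in the controls, 23.9 ± 14.3 in the knockdown-labelled libraries) and Rps3a3 (0.478 ± 0.246 and 0.374 ± 0.295; SD, n = 4) were a small part of Rps3a1 (1014 ± 149 and 1047 ± 92.0 CPM). Rpl6l and Rpl32l, also processed pseudogenes, did not pass the filter on low counts and reached at most 2.36 and 1.83 CPM, beside standard genes of 72.2 to 148 CPM (Rpl6) and 189 to 301 CPM (Rpl32). Rps12l1 had 0 counts in all libraries, while Rps12 stood at 80.9 to 174 CPM. All windows of 50 bases in Rps12l1 (100%) also occur in other genes, so its reads could be assigned elsewhere and its count of 0 gives no limit on its level. Such windows made up 90.2% of Rps3a2 and 76.4% of Rpl6l, and their counts are uncertain too.

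The 9 pairs with tested paralogues were compared between the groups by exact 2-sided permutation tests on the log2 ratio, with Benjamini-Hochberg adjustment over the 9. With 4 against 4 libraries the smallest possible p is 0.0286, so a single pair could not pass after adjustment over the 9, and the tests do not show that the ratios were alike. The smallest unadjusted p was 0.257, for Rps27l to Rps27, whose ratio was 10.7 ± 2.67 in the controls and 8.43 ± 2.48 in the knockdown-labelled libraries (SD, n = 4), and the adjusted values ran from 0.986 to 1.0.

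**Figure D4:**
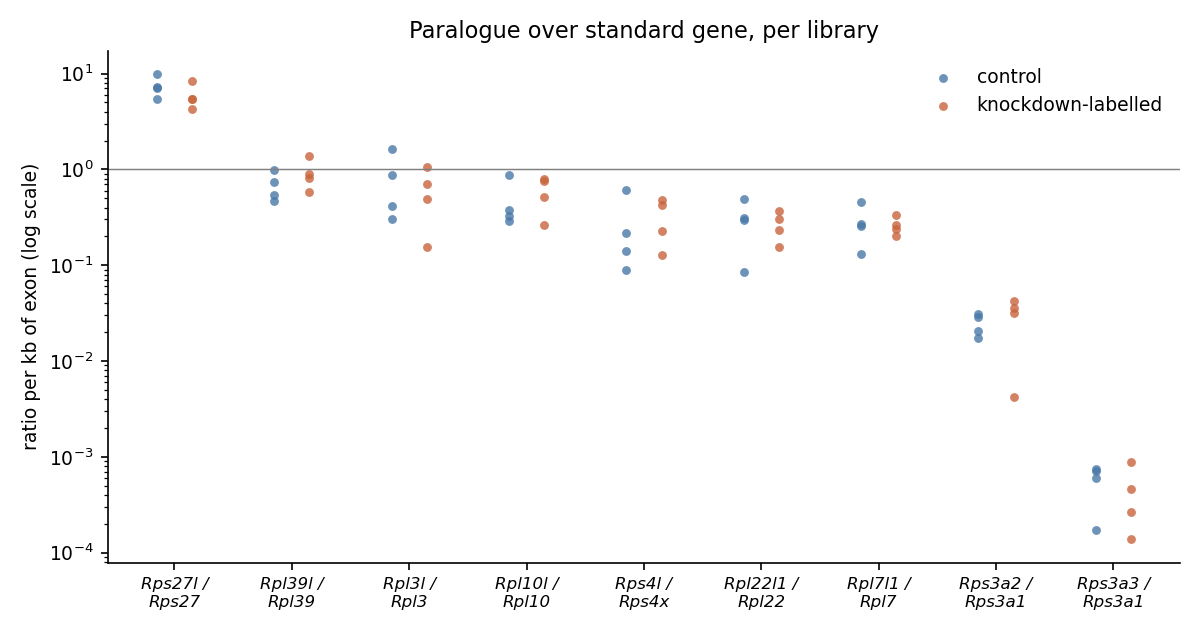
Ratio of each paralogue to its standard gene per kb of exon (log scale), 1 point per library (blue, 4 control; orange, 4 knockdown-labelled). The Rps27l ratios lie above 1 (grey line) in all 8 libraries, and the points of the groups overlap in each of the 9 pairs.

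Counts of this family rest on how reads were divided among copies, since ribosomal protein genes have many processed pseudogenes. In the annotated transcripts, a median of 55.5% of the 50-base windows of a standard member also occurred in another gene, and 47 of the 77 had over 50% shared. The 318 rows named as pseudogenes of a member held 0.0129% to 0.0177% of the counts of a library. Rows without such a name also share windows with members: for Rpl30 all sharing rows together amounted to 20.6% of its own level, for Rps2 to 19.4%, for Rplp0 to 14.5% and for Rpsa to 11.6%, and the figure was over 10% for 11 of the 77. Rps27 shared 98.6% of its windows with 9 other genes, whose rows together amounted to 0.894% of the Rps27 level, and Rps27l shared 22.4%. Rpl10 shared 92.1%, Rpl39 16.2%, Rpl10l 7.60%, and Rpl39l and Rpl3l 0%. The 14 standard members that shared windows with at least 20 genes had a median of 165 CPM per kb, and the 63 others had 428. In Rps16, Rps20 and Rpl23 of the 14, part of the shared windows lies in genes that are no copies, such as Brca2, Mzt1 and Timm17a. All sharing rows together amounted to 788%, 245% and 388% of the level of these 3 members. For the 74 other standard members the figure was at most 20.6%. Over the 77, the number of genes sharing windows with a member and its level had a Spearman's rho of -0.29, a description across genes that share their counting. Rpsa (27 other genes) and Rpl3 (26 other genes), the lowest members of their subunits, are among the 14, and the part of read division in their low levels was not tested. In addition, 25 members overlap a gene on the opposite strand, among them Rpl3, Rpl12, Rpl15, Rpl18, Rps2, Rps14, Rps18, Rps28 and Rps4l, and whether the counting used strand is unknown here.

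Between the groups, no member passed the test. The question of the comparison is whether Polq knockdown changes the transcriptome, here the mRNAs of the ribosome. Of the 89 members, 86 passed the filter on low counts (all 77 standard members and 9 paralogues), and 0 of the 86 had an adjusted p under 0.05 in edgeR's quasi-likelihood test, as for 0% of the 13146 genes tested. DESeq2 and limma-voom also called 0 members, and 20 and 0 of all genes. At an unadjusted p under 0.05, 2 members were higher (Rpl18 and Rps2), where 1.1% of all genes were, and 0 were lower, where 1.71% of all genes were. The groups of 4 libraries did not overlap in 0 of the 86 members, while they lay apart in 1.44% of all genes with the knockdown-labelled libraries higher and in 1.54% with them lower.

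The log2 fold change was positive in 71 of the 86 members, where it was positive in 46.6% of all genes tested. The median was 0.15 for the 86, with a range of -0.56 (Rpl12) to 0.83 (Rpl3), and -0.05 for all genes. It was positive in 39 of 46 large-subunit genes (median 0.14), 26 of 31 small-subunit genes (median 0.15) and 6 of 9 paralogues (median 0.21). The members are not independent, since they moved together from library to library, and this shift was smaller than the spread of the controls given above. Control replicate 2, in which most members were low, carried much of it: without that library 62.1% of the members tested were positive (54 of 87), with a median of 0.06, where 48.6% of all genes were positive. Without control replicate 3 the median was 0.09, without control replicate 1 it was 0.33, and without knockdown-labelled replicate 1 it was 0.24. Leaving out the 3 shallow knockdown-labelled libraries, an alternative chosen after seeing the data, gave a median of 0.24 for the members and -0.36 for all genes. The 95% interval of the fold change lay within 2-fold in either direction for 63 of the 86 members. For these members a larger difference would lie outside the interval. The same held for 2037 of the 13146 genes tested, and for 2017 of the 4270 with a mean of at least 20 CPM. For Rpsa it ran from -2.02 to 2.26, and no statement on its size can be made.

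**Figure D5:**
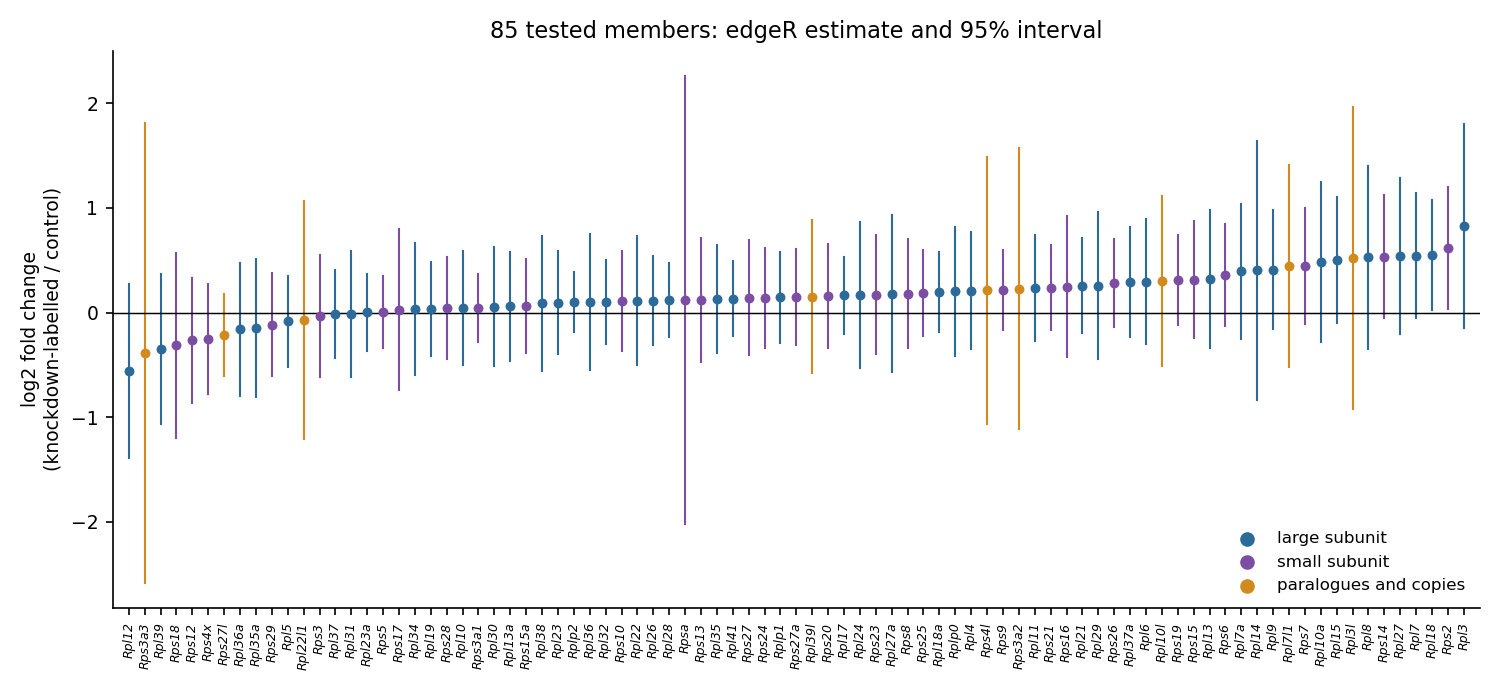
Log2 fold change (knockdown-labelled over control, 4 libraries each) of 85 of the 86 tested members with its 95% interval from edgeR, ordered by estimate and coloured by class. Of the 85 estimates, 70 lie above 0, and 83 intervals include 0, all but those of Rpl18 and Rps2.

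The large-subunit members with the smallest p were Rpl18, Rpl7, Rpl3 and Rpl15. Rpl18 (chr7:45715457-45720836, plus strand) stood at 86.7, 88.9, 78.0 and 122 CPM in the controls and 97.8, 175, 134 and 144 CPM in the other group, with an overlap through control replicate 4 and knockdown-labelled replicate 1. Its log2 fold change was 0.55 (SE 0.23, edgeR unadjusted p = 0.0409, adjusted p = 1.0). Rpl7 stood at 190, 104, 187 and 198 CPM and at 155, 254, 305 and 276 CPM (log2 fold change 0.55, SE 0.27), with control replicate 2 and knockdown-labelled replicate 1 low. Rpl3, whose values are given above, had a log2 fold change of 0.83 (SE 0.44). Rpl15 stood at 82.7, 50, 53.6 and 70.9 CPM and at 70.2, 123, 99.7 and 71.1 CPM (0.50, SE 0.27), and without the 3 shallow libraries its log2 fold change was 0.15.

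The small-subunit members with the smallest p were Rps2, Rps14, Rps7 and Rps6. Rps2 (chr17:24718116-24721929, plus strand), a protein at the entry of the mRNA channel, stood at 34.1, 40.9, 31.7 and 44.6 CPM in the controls and 76.3, 57.3, 56.0 and 43.0 CPM in the other group. The only overlap was through control replicate 4 and knockdown-labelled replicate 4, and the log2 fold change was 0.62 (SE 0.26, edgeR unadjusted p = 0.0400, adjusted p = 1.0). With knockdown-labelled replicate 4 as the sole library of its group, assumed to vary like the controls, it was 0.19 (chosen after seeing the data). Rps14 stood at 379, 200, 289 and 348 CPM and at 266, 482, 461 and 551 CPM (log2 fold change 0.54, SE 0.26), and knockdown-labelled replicate 1 lay among the controls. Rps7 had 108 ± 31.5 and 148 ± 24.4 CPM and Rps6 222 ± 62.6 and 284 ± 34.8 CPM (SD, n = 4). In all 8 of these genes the adjusted p of the edgeR test was 1.0, and the lowest adjusted p that any alternative gave for one of them was 0.475.

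Genes that act with the ribosomal proteins gave 0 adjusted calls as well. Of the ribosomal protein genes outside the rule, Fau, a 40S protein made as a fusion, stood at 560 ± 145 and 653 ± 132 CPM and Rpl36al at 624 ± 127 and 637 ± 83.0 CPM (SD, n = 4). Among 21 tested translation factors and other genes with TOP mRNAs, 16 were positive (median 0.13), with Eif3a at 97.0 ± 20.3 and 135 ± 28.8 CPM and Eif3f at 10.2 ± 4.34 and 19.7 ± 6.67 CPM. Of 19 regulators of TOP mRNAs and members of the mTORC1 pathway, 13 were positive (median 0.32). Among these, the mTORC1 activator Rheb stood at 173 ± 10.2 and 248 ± 24.3 CPM (log2 fold change 0.52, SE 0.15, edgeR adjusted p = 1.0), and the RNA-binding protein Larp4b at 91.2 ± 16.0 and 63.7 ± 14 CPM. Of 43 genes of ribosomal protein chaperoning and ribosome assembly, 26 were positive (median 0.09), with Utp20 at 8.11 ± 1.78 and 19.4 ± 5.54 CPM and Nvl at 99.5 ± 55.1 and 51.3 ± 18.7 CPM. Of 13 genes of RNA polymerase I, 8 were positive (median 0.12), with Cd3eap at 20.5 ± 5.89 and 32.5 ± 15.7 CPM and Polr1c at 113 ± 25.5 and 148 ± 60.5 CPM. Of 74 mitochondrial ribosomal protein genes, 31 were positive and 43 negative (median -0.06), with Mrps14 at 781 ± 53.1 and 549 ± 30.9 CPM and Mrpl4 at 6.39 ± 1.38 and 22.3 ± 11.2 CPM. In median and sign the mitochondrial list thus lay near all genes tested, and its difference from the cytosolic list was not tested. At an edgeR unadjusted p under 0.05, 3 of the 74 were higher and 2 lower, where 1.1% and 1.71% of all genes were. The groups lay apart in 2 with the knockdown-labelled libraries higher and in 1 with them lower, where 1.44% and 1.54% of all genes did.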

How the data were processed

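RNA was sequenced from 8 pools of 5 mouse 2-cell embryos, 4 per group. The submitters' processing notes list GRCm38 (mm10) as the build, and as tools RSEM 1.2.28, STAR 2.7.3a and Trim Galore 0.6.10. The deposited values are the authors' expected counts per gene, not normalised, and RSEM divides reads that match several genes by estimation. For annotation release, strand setting and filters: not given in the sources. Library preparation was with the NEBNext Ultra RNA kit, per the labels' protocols, which mention no molecular identifiers, so that a count is not a molecule.

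Expected counts were rounded (4.22% of the values changed). Genes passing filterByExpr by group (minimum count 10, minimum total 15) were scaled by TMM and tested with edgeR 4.0.16 (robust quasi-likelihood, group only) in R 4.3.3, adjusted by the Benjamini-Hochberg method over 13146 genes at a threshold of 0.05. Libraries held 4726159 to 43748621 counts, and the common biological coefficient of variation was 0.987. Gene by gene, its median was 0.852 over all genes tested and 0.291 over the 86 tested members. The samples of each group are described as biological replicates without litters being named, so p-values measure the spread between these pools. The procedure was tested on simulated counts whose spread between replicates was the same for all genes and below the common value here. That test thus does not show how the procedure performs at the common value, or where the spread differs between genes as it does here. Deviations used log2(CPM + 1). Promoter letters came from RefSeq (GRCm38.p6), lengths and shared windows of 50 bases from GENCODE vM21. Exact tests enumerated all assignments of the libraries to the groups, in Python 3.11.15 with numpy 2.4.6.

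Members, lists, named genes and tests were chosen with earlier results of these data known. Named were fixed landmarks, every paralogue with its standard gene, the 4 standard members per subunit with the smallest p, the 3 highest and 2 lowest per kb of exon, all untested members, and 2 genes per related list; some of these are not reported here. Alternatives were other scalings (DESeq2 size factors, upper quartile, library totals, TMM without the members), leaving out mitochondrially encoded genes, other filters (none, or 5 CPM in 4 libraries), DESeq2 1.42.0, limma-voom (limma 3.58.1), a replicate block, adding pseudogene rows, thinning to the smallest library and leaving out each library.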

Additional observations from a re-analysis of the deposited data

Results flagged for a closer look

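Each named member that was tested, and the share of counts by class, was examined in each group of 4 libraries for a library whose gap to the next, divided by the group's range, exceeded Dixon's 95% critical value. This marked 6 of 88 groups, and chance marks about 1 in 20 (5%). In control replicate 2, Rpl22 stood at 72.8 CPM, while the other controls held 136 to 148 CPM, and Rpl7 stood at 104 CPM, while the others held 187 to 198 CPM. This is the library in which most standard members were low. In knockdown-labelled replicate 1, the shallowest library, Rpl22 stood at 86.1 CPM beside 145 to 151 CPM, and Rpl39l at 205 CPM beside 523 to 533 CPM. In knockdown-labelled replicate 4, Rpl32 stood at 301 CPM beside 242 to 252 CPM. In control replicate 3, the pseudogene Rps3a3 stood at 0.114 CPM (5 counts) beside 0.567 to 0.652 CPM. Rpl22 was thus marked in both groups, by its low library each time.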

How the results depend on the processing

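No member was called under any of the 21 alternatives. Over all genes, DESeq2 called 20 and every other alternative 0. The median log2 fold change of the members stayed positive under every alternative: 0.11 to 0.22 over the scalings, filters, tools, thinning and added pseudogene rows, and 0.058 (without control replicate 2) to 0.33 (without control replicate 1) with each library left out in turn. The scalings placed the median of all genes between -0.05 and -0.02, and limma-voom at 0.05. The 8 members named for their small p kept a positive sign under every alternative. With the replicate number as a block, 0 genes were called and the members' median was 0.16 (74 of 86 positive). Deviations of same-numbered libraries had correlations of -0.36, -0.06, -0.004 and 0.03 over 2987 genes. Those of differently numbered libraries ran from -0.32 to 0.37. With 4 libraries a group, these values cannot tell whether equal numbers mark a shared litter or day. Of the paralogue ratios, those of Rpl3l, Rpl22l1, Rps3a2 and Rpl7l1 changed sign with a library left out (added after seeing the data), with log2 differences of -0.79 to 0.13, -0.51 to 0.34, -0.50 to 0.62 and -0.31 to 0.30, and the other 5 kept theirs; in such a design of 4 against 3 no pair could be called. The cause of the DESeq2 calls was not tested. Depth limits the rarest copies: Rps3a3 held 1 to 28 counts a library.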
